A study of Mus musculus with 15 samples.

Results

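Genes of DNA replication and cell division were examined in the livers of newborn mice that lack the miR-379/miR-410 microRNA cluster and of their wild-type littermates. The set holds 45 genes, chosen by symbol, of which 25 act in DNA replication or its control and 20 in mitosis. Each gene was read by the Agilent probe with its symbol that had the brightest mean signal. Of the 45 members, 43 passed a background filter (a probe well above background on at least 3 of the 15 arrays), among 27553 genes or single-probe transcripts tested in all. Those 43 comprised 24 replication and 19 mitosis members, and each was well above background on all 15 arrays. The other two, Aurkb (the kinase of the chromosomal passenger complex, 0 of 15 arrays) and Ccne2 (cyclin E2, 2 of 15 arrays), were not well above background and are given no fold change.

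All pups were C57BL/6J mice studied on postnatal day 1, each contributed 1 whole-liver RNA sample to 1 single-colour array, and the knockout (KO) pups carried the deletion on the chromosome inherited from the mother. By their blood glucose, KO pups fell into a hypoglycaemic group (n = 7, 9 to 33 mg/dl) and a normoglycaemic group (n = 3, 44 to 56 mg/dl), and the wild-type group held 5 pups (50 to 72 mg/dl). Since glucose defined the KO groups, the deletion and low glucose cannot be told apart when hypoglycaemic KO livers are set against wild type. A level below is the log2 probe signal minus the log2 of the 75th percentile of that array, so that 0 is the 75th percentile and 1 unit is a doubling of signal; levels are compared between libraries for a gene, never between genes.

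A cell copies its genome in S phase and separates the copies in mitosis, and the transcripts of each task are made mostly in the phase that uses them. Replication origins are licensed in G1 when CDC6 and CDT1 load the MCM2 to MCM7 helicase ring, and E2F transcription factors, released by cyclin D and cyclin E kinases, drive the genes of S phase. The genes of mitosis are driven later, through complexes that bind the CHR and CCAAT promoter elements and through FOXM1. Newborn mouse liver still makes blood cells, so dividing erythroid and myeloid precursors lie in it beside hepatocytes that are themselves dividing, and in bulk tissue fewer dividing cells and less RNA per dividing cell cannot be told apart.

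The promoters of both arms differed in the letters they carry, and stretches of 4 are shown because they hold the elements named above. The RefSeq table (GRCm38.p6) gave windows of 250 bases before to 50 after the start for 34 of the 45 members, 36 windows in all. Each stretch printed is the 170 bases just before the start, 5′ to 3′ on the strand of the gene, with every match in capitals to an E2F-type site (TTTCCCGC or TTTGGCGC), a CHR-type site (TTTGAA) or CCAAT, each searched on both strands. Mcm6 and Mcm5 encode subunits of the replicative helicase, Cdk1 encodes the kinase that drives entry into mitosis, and Cdc20 encodes the activator of the anaphase-promoting complex.
Mcm6 (chr1:128359706-128359875, minus strand): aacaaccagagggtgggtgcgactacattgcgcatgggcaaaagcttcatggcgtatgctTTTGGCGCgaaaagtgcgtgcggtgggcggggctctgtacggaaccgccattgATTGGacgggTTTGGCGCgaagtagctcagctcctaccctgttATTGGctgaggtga
Mcm5 (chr8:75109339-75109508, plus strand): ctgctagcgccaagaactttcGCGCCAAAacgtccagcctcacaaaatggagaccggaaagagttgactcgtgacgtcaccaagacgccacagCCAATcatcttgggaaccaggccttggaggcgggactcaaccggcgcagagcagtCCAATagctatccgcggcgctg
Cdk1 (chr10:69352913-69353082, minus strand): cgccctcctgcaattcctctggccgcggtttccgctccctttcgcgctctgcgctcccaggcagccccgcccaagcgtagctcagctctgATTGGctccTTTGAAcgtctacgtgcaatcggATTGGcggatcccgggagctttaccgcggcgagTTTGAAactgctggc
Cdc20 (chr4:118437344-118437513, minus strand): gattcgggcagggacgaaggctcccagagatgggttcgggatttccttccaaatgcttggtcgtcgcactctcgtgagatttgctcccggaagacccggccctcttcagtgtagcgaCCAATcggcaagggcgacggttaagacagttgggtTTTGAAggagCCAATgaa

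An E2F-type match lay in 8 of 22 replication windows (Cdc6, Cdt1, Mcm3, Mcm5, Mcm6, Mcm7, Pold1 and Rfc3) and in 0 of 14 mitosis windows, against 1.56% of the 32851 windows in the table. The Mcm6 stretch held one starting 110 bases before the start of the gene and another at 47, the Mcm5 stretch held one at 149. CHR-type matches ran the other way, with 3 of 22 replication windows (Cdc45, Mcm2 and Pold2) and 9 of 14 mitosis windows, among them Aurka, Bub1b, Ccnb2, Cdk1, Cdc20, Kif11 and Plk1, against 17.9% of all windows. CCAAT was in 13 replication and 11 mitosis windows, against 37.4% of all. In the other genes of each process, listed for comparison, the E2F-type letters were in 9 of 40 replication and 3 of 37 mitosis windows and the CHR-type letters in 8 of 40 and 29 of 37. A match describes letters in the window and shows neither a bound site nor its use in liver.

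The targeted locus was checked through Mirg, the noncoding transcript that hosts the cluster. Mirg was −3.02 to 0.66 (median −2.15) in hypoglycaemic KO livers, against −2.80, −2.76 and −2.68 in normoglycaemic KO livers and 1.07, 1.60, 0.88, 1.39 and 1.21 in wild-type livers. The library labelled hypoglycaemic KO replicate 2 was the one at 0.66, which does not match its label. Without it, the median difference of hypoglycaemic KO from wild type, described further on, was −0.26 in replication members and −0.09 in mitosis members, that from normoglycaemic KO was −0.41 and −0.28, and the median slope on glucose within groups was 0.29 and 0.18.

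**Figure D1:**
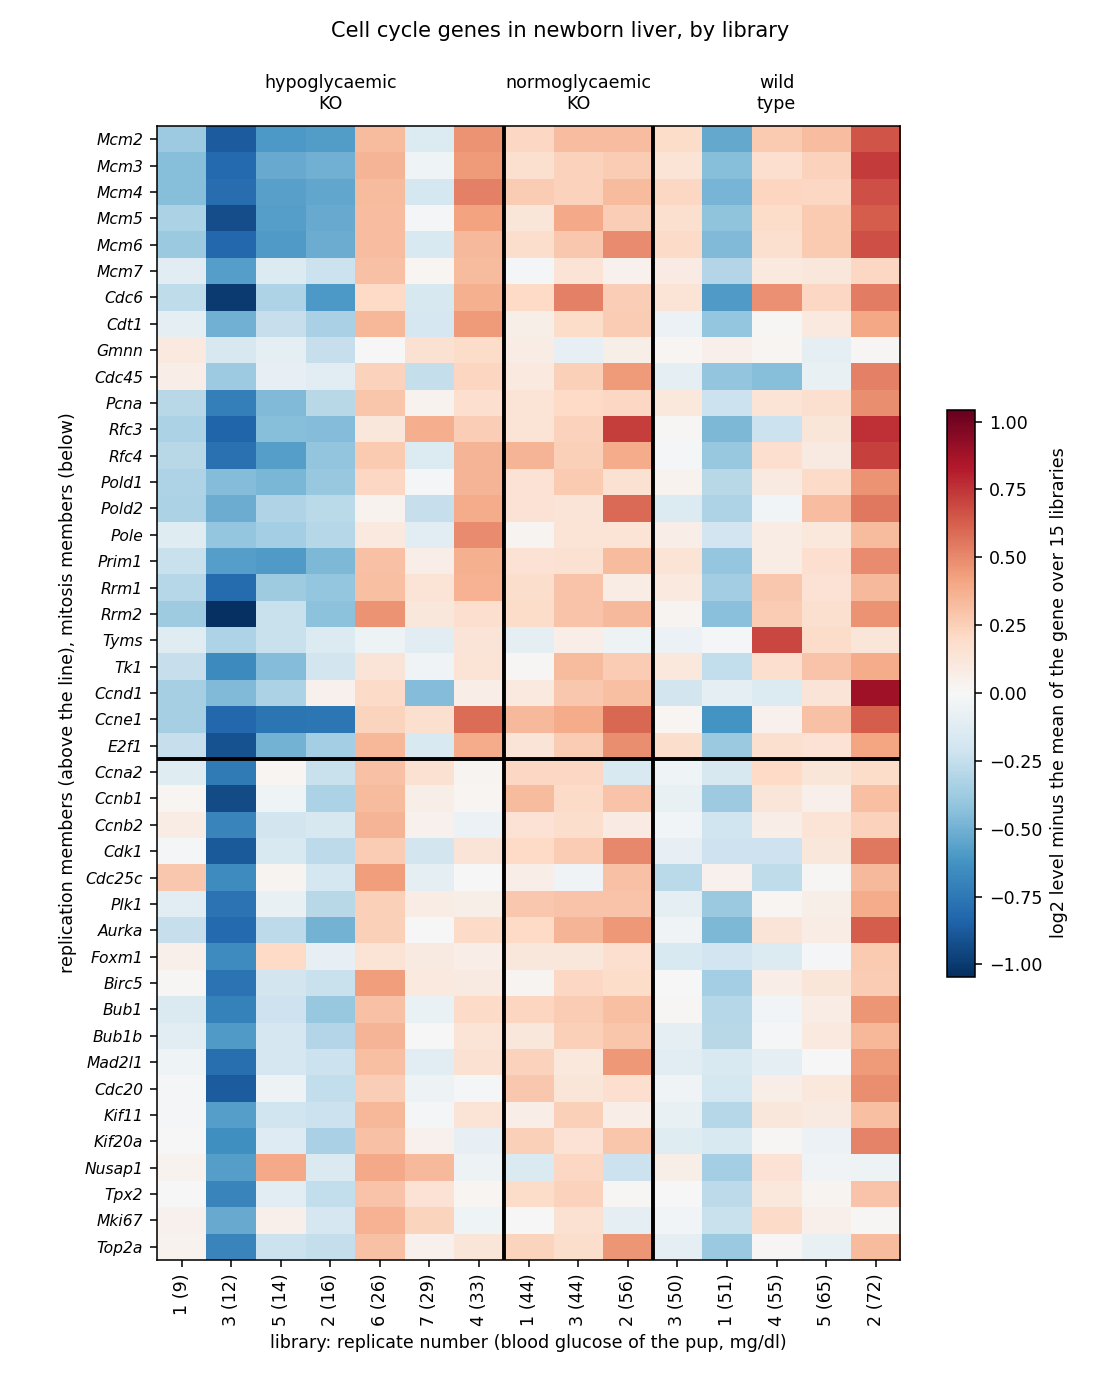
Level of the 43 members tested in each of the 15 libraries, as log2 level minus the mean of the gene over the 15 libraries (colour), with libraries ordered by blood glucose within hypoglycaemic KO, normoglycaemic KO and wild type. The 4 hypoglycaemic KO libraries of 9 to 16 mg/dl are low in nearly all replication members, those at 26 and 33 mg/dl are high in most, the one at 29 mg/dl lies near the mean, and wild-type replicate 1 is low as well.

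Most members varied together across libraries. Over the 15 libraries the median correlation between pairs of replication members was 0.89 (276 pairs) and between pairs of mitosis members 0.88 (171 pairs), while pairs made of 1 member of each arm had a median of 0.79 (456 pairs). These libraries share arrays, slides and cell composition, so the correlations describe the set and are given without a test. Least like the rest were Nusap1 (a spindle microtubule-binding protein, r = 0.44 with the mean of the other members), Gmnn (geminin, the inhibitor of CDT1, 0.46) and Tyms (thymidylate synthase, 0.47). Outside every gene list, the 10 genes whose levels followed the mean of the members most closely were Tuba1b (r = 0.99), Chtf18, Bard1, H2az1, Rnaseh2b, Syce2, Tyms-ps, Nsmce1, Rad51ap1 and Pask (0.97), over 15 libraries. The Tyms-ps probe, named for a pseudogene of Tyms, followed the set at r = 0.97, unlike the Tyms probe itself; which transcripts each of them reads cannot be told apart where the copies share sequence.

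In the hypoglycaemic KO livers, the mean level of the 24 replication members was 1.68 to 2.69 (median 2.10), against 2.49, 2.66 and 2.60 in the normoglycaemic KO livers and 2.00, 2.86, 2.41, 2.48 and 2.53 in the wild-type livers. The mean of the 19 mitosis members was 1.44 to 2.47 (median 2.14) in hypoglycaemic KO livers, against 2.31, 2.36 and 2.35 in normoglycaemic KO livers and 1.89, 2.49, 2.08, 2.18 and 2.20 in wild-type livers. The hypoglycaemic KO group thus spanned both the lowest values and values as high as most wild-type livers, and the ranges of all 3 groups overlapped. Normoglycaemic KO livers had the narrowest spread, with an SD of 0.08 in replication and 0.02 in mitosis members (n = 3), against 0.36 and 0.32 in hypoglycaemic KO (n = 7) and 0.31 and 0.22 in wild type (n = 5).

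The first question was which members differ from wild type in the pups of lowest glucose. No member passed the test in this comparison, in limma's moderated test with Benjamini-Hochberg adjustment over all genes at 0.05, where 0.0181% of all genes did (5 of 27553). The levels lay below those of wild type in 23 of 24 replication members, with a median difference of −0.30 (1.23-fold lower), and in 16 of 19 mitosis members, with a median of −0.12 (1.09-fold lower), while the median over all genes was 0.02. At an unadjusted p under 0.05, 2 members were lower and 0 higher, beside 8.97% and 9.69% of all genes. That count rested on single libraries. Without hypoglycaemic KO replicate 4, 13 replication members were lower (beside 10.7% of all genes), and 10 without wild-type replicate 1 (10.2%). Without hypoglycaemic KO replicate 6 there were 6 (10%), and 0 to 2 without any other single library. In each case 0 mitosis members were lower. The 2 members lower with all libraries, a smaller share than among all genes, were Tk1 and Tyms. Tk1, thymidine kinase, read 3.13 to 3.94 (median 3.60) in hypoglycaemic KO livers, against 3.53, 4.18, 3.90, 3.97 and 4.09 in wild-type livers, a difference of −0.33 ± 0.15 (SE, adjusted p = 0.26). Tyms, thymidylate synthase, differed by −0.31 ± 0.12 (SE, adjusted p = 0.19), with −2.10 to −1.64 (median −1.90) in hypoglycaemic KO livers, against −1.79, −1.65, −1.84, −1.08 and −1.59 in wild-type livers. The wild-type mean of Tyms rested partly on replicate 4, the library at −1.08.

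Among the licensing genes the median difference from wild type was −0.39 in hypoglycaemic KO livers, and Mcm2, Mcm3, Mcm4, Mcm5, Mcm6 and Cdc6 lay between −0.44 and −0.39. Mcm6 read 4.43 to 5.59 (median 4.87) in hypoglycaemic KO livers, against 4.79, 5.93, 5.45, 5.41 and 5.52 in wild-type livers, a difference of −0.43 (95% interval −0.91 to 0.05, adjusted p = 0.32). Wild-type replicate 1, at 4.79, fell among the low hypoglycaemic KO livers, so the groups overlapped. Mcm7 (−0.10), Cdt1 (−0.09), Gmnn (−0.01) and Cdc45 (0.06), the last a subunit of the active helicase, stayed closer to the wild-type mean. Genes of the polymerases, the PCNA clamp, its RFC loader and primase ran from −0.34 for Rfc4 to −0.18 for Pole. In G1 to S control the values were −0.32 for Ccne1 (cyclin E1), −0.31 for E2f1 and −0.30 for Ccnd1 (cyclin D1).

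The mitosis members differed less from wild type. Aurka, the Aurora kinase of the spindle poles, was the lowest at −0.26 (95% interval −0.69 to 0.16), followed by Cdc20 at −0.23, and Nusap1 was the highest at 0.10. Mki67, the Ki-67 antigen found on chromosomes of cycling cells, read 5.33 to 6.22 (median 5.91) in hypoglycaemic KO livers, against 5.63, 5.87, 5.83, 6.06 and 5.91 in wild-type livers. Its difference was −0.01 (95% interval −0.29 to 0.28), and Top2a, topoisomerase II alpha, gave −0.05 (−0.39 to 0.29). In 0 of 43 members did all 7 hypoglycaemic KO livers lie below all 5 wild-type livers, as they did in 0.751% of all genes.

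The hypoglycaemic KO values depended on single libraries and on the slide. Without the 3 arrays richest in exocrine pancreas transcripts (1 of each group: hypoglycaemic KO replicate 3, normoglycaemic KO replicate 2 and wild-type replicate 2), the median difference from wild type was −0.09 in replication members and turned to 0.06 in mitosis members. The replication median was −0.32 on slide 1 and −0.22 on slide 2. The mitosis median was −0.27 on slide 1 and 0.07 on slide 2, so that its direction was not the same on both slides. Slide 1 held 4 hypoglycaemic KO pups (9, 12, 16 and 33 mg/dl) and 2 wild-type pups. Slide 2 held 3 hypoglycaemic KO pups (14, 26 and 29 mg/dl) and 3 wild-type pups. Slide and glucose were thus mixed in this group, and their parts were not tested. For the difference from normoglycaemic KO livers given further on, the medians were −0.50 and −0.42 within slide 1 (2 normoglycaemic KO livers). They were −0.31 and −0.10 within slide 2 (1 normoglycaemic KO liver), and −0.28 and −0.20 without those 3 arrays.

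**Figure D2:**
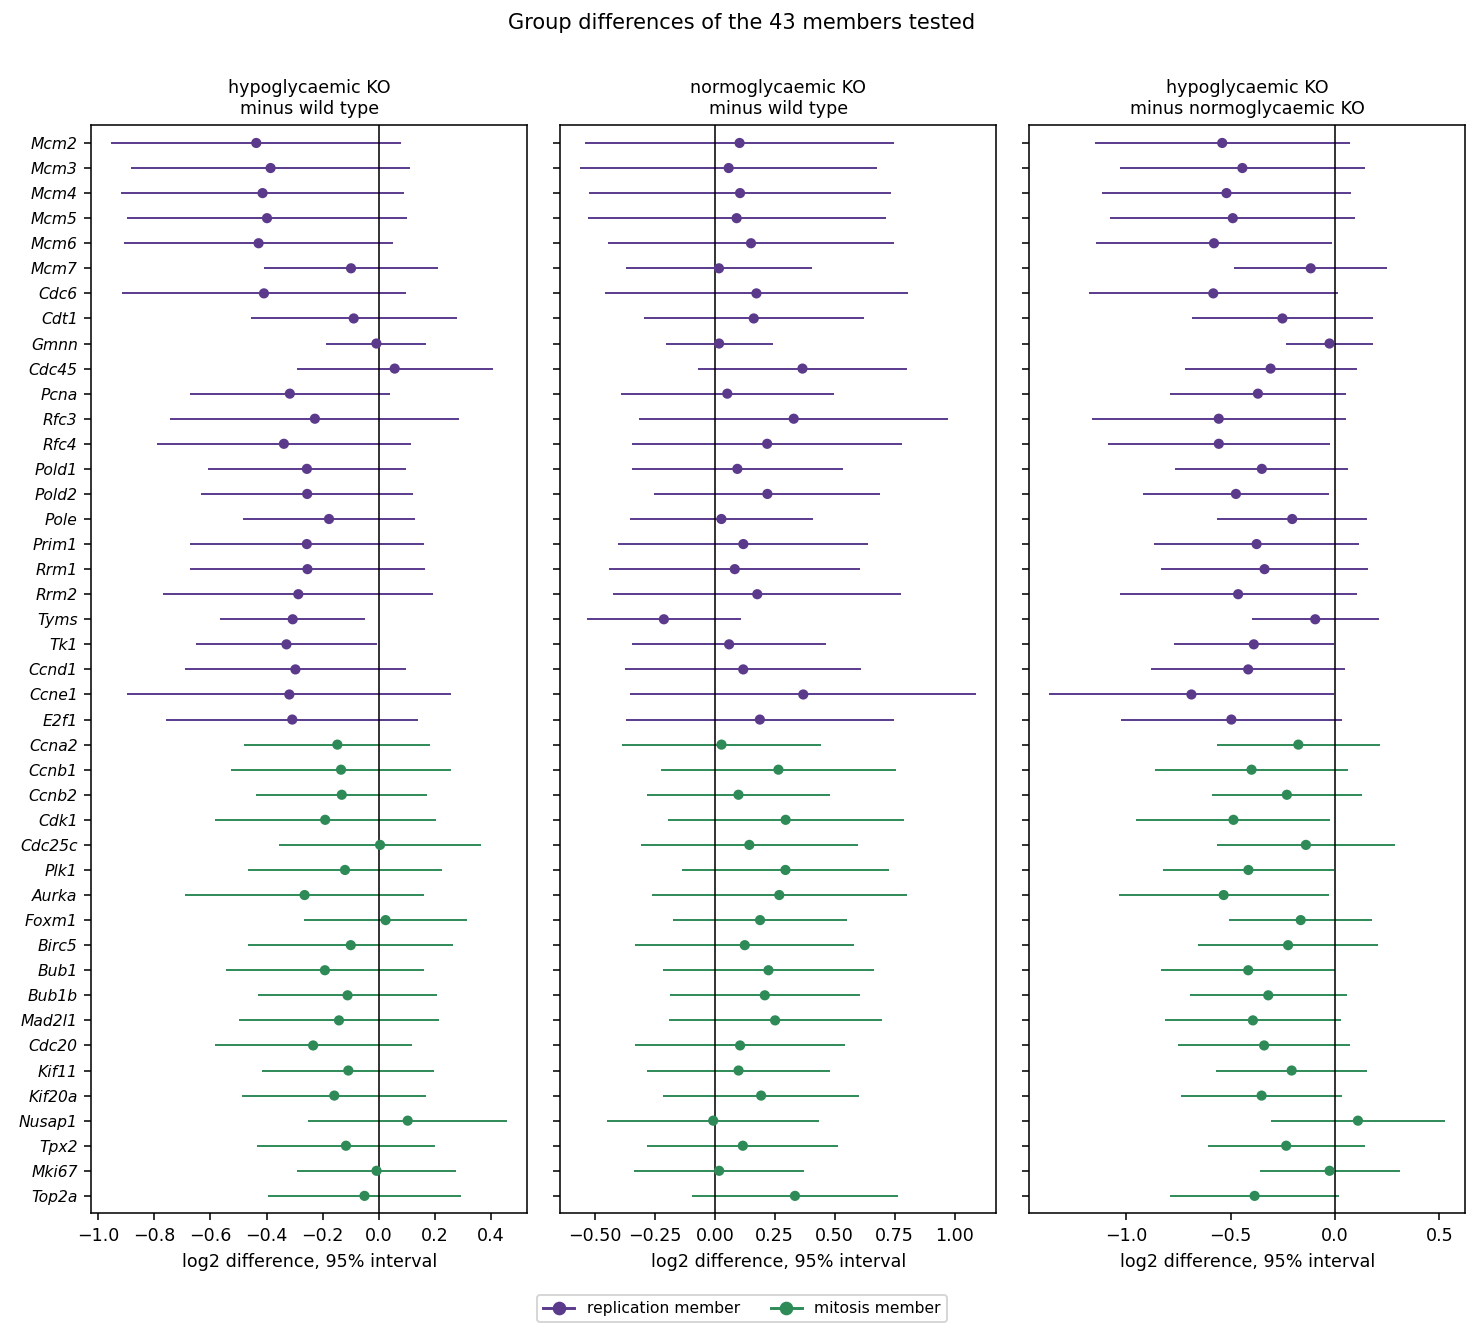
Differences of the 43 members between groups (log2, points) with 95% intervals (lines), replication members in purple and mitosis members in green. Nearly all points lie below 0 for hypoglycaemic KO minus wild type and for hypoglycaemic minus normoglycaemic KO, and above 0 for normoglycaemic KO minus wild type, with intervals that mostly span 0.

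Normoglycaemic KO pups differ from wild type in the deletion, and their blood glucose ranges overlap only through the KO pup at 56 mg/dl. The other normoglycaemic KO pups, both at 44 mg/dl, lay below all wild-type pups (50 to 72 mg/dl). The Y-linked Ddx3y was at 1.85, −5.82 and 2.01 in normoglycaemic KO livers. It was at 2.01 in wild-type replicate 3 and −6.01 or lower in the other wild-type livers, so the groups also differed in sex. No member passed the adjusted test between them, nor did any of the 27553 genes (0.0%), and 0 members had an unadjusted p under 0.05, beside 3.07% of all genes higher and 1.72% lower. The levels in normoglycaemic KO livers lay above those of wild type in 41 of 43 members, with a median difference of 0.11 in replication and 0.19 in mitosis members, against 0.01 over all genes. With same-numbered libraries paired, the medians were 0.23 and 0.22, and again 0 members passed. Ccne1 had the largest difference among them, reading 3.34, 3.61 and 3.40 in normoglycaemic KO livers, against 2.38, 3.64, 3.03, 3.05 and 3.31 in wild-type livers, or 0.37 (95% interval −0.35 to 1.09, adjusted p = 0.97). Its groups overlapped through wild-type replicate 2. In 0 of 43 members did all 3 normoglycaemic KO livers lie above all 5 wild-type livers, beside 2.35% of all genes. One wild-type library weighed on the replication arm: without replicate 1, the median difference of replication members was −0.01.

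Between the KO groups, which share the deletion by their labels and were sorted by glucose, the distance was wider. Hypoglycaemic KO replicate 2, whose Mirg level did not match its label, was kept in this comparison. The share of pups with the Y-linked Ddx3y also differed between the KO groups, as given further on. The levels in hypoglycaemic KO livers lay below those in normoglycaemic KO livers in 24 of 24 replication members (median difference −0.43, or 1.35-fold lower) and in 18 of 19 mitosis members (median −0.32, or 1.25-fold lower), against −0.01 over all genes. No member passed the adjusted test, which 0.0544% of all genes did (15 of 27553). At an unadjusted p under 0.05, 8 members were lower (Mcm6, Rfc4, Pold2, Tk1, Ccne1, Cdk1, Plk1 and Aurka) and 0 higher, that is 8 of 43 beside 9.97% lower and 9.36% higher of all genes. These calls were not stable. With hypoglycaemic KO replicate 4 left out, more members of both arms were lower, and adjusted calls over all genes rose too, from 15 to 947. Without hypoglycaemic KO replicate 6 the median differences were −0.49 in replication and −0.40 in mitosis members. Without wild-type replicate 2, 7 replication and 7 mitosis members were lower (beside 10.3% of all genes). None was lower without hypoglycaemic KO replicate 2, 3 or 5 or normoglycaemic KO replicate 2, with median scaling, within either slide or without the 3 pancreas-rich arrays, and 1 to 4 members were lower without hypoglycaemic KO replicate 1, normoglycaemic KO replicate 1 or 3, or wild-type replicate 3, 4 or 5. Ccne1 read 2.19 to 3.59 (median 2.66) in hypoglycaemic KO livers, against 3.34, 3.61 and 3.40 in normoglycaemic KO livers, a difference of −0.69 ± 0.32 (SE, adjusted p = 0.25). Its highest hypoglycaemic KO liver, that of the pup at 33 mg/dl, reached the normoglycaemic range. Plk1, Polo-like kinase 1, was the 1 member of 43 whose 7 hypoglycaemic KO livers, at 2.40 to 3.42 (median 3.09), all lay below the 3 normoglycaemic KO livers, at 3.45, 3.46 and 3.46, as in 3.96% of all genes. Its difference was −0.41 ± 0.19 (SE, adjusted p = 0.25). This comparison shares its libraries with both comparisons above, and the 3 sets of values are not independent.

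**Figure D3:**
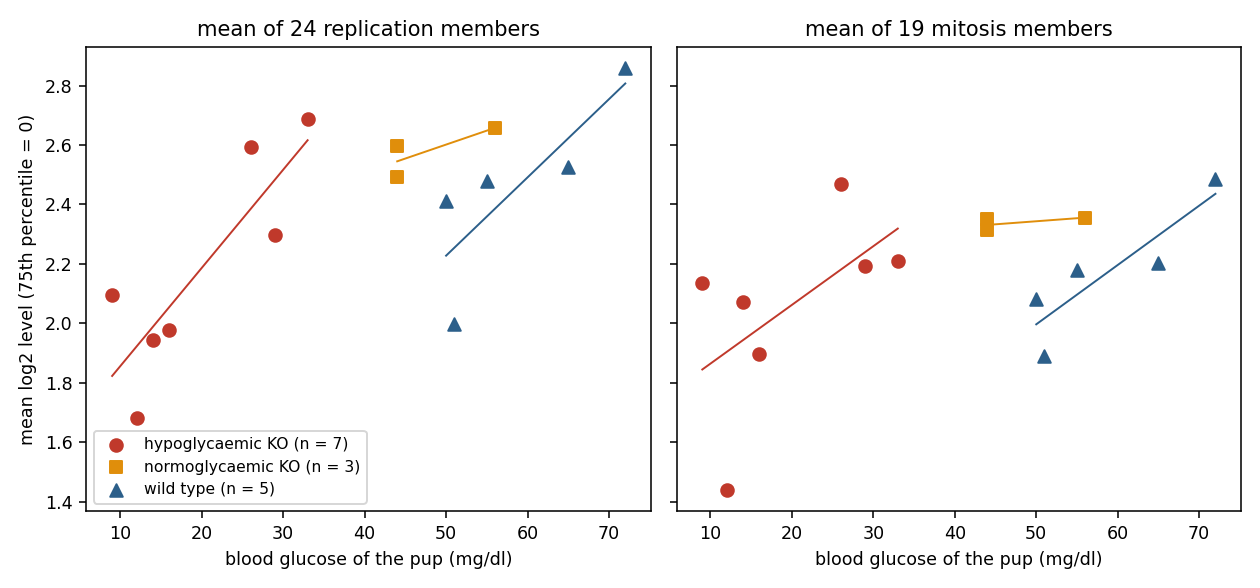
Mean log2 level of the 24 replication members (left) and the 19 mitosis members (right) in each library against the blood glucose of the pup, with a least-squares line per group drawn as a description. Within hypoglycaemic KO and wild type the replication means are higher at higher glucose, and normoglycaemic KO livers lie close together.

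Blood glucose was then set against the members within the groups, which asked whether levels follow glucose among pups of one genotype and class. In a model with a mean for each group and a common slope over the 15 libraries, all 43 members had a positive slope, with a median of 0.30 log2 units per 10 mg/dl in replication members and 0.18 in mitosis members, against −0.02 over all genes. At an unadjusted p under 0.05 the slope was positive in 34 of 43 members and negative in 0, beside 8.11% positive and 9.97% negative of all genes. By role these were 9 of 10 licensing genes, 7 of 7 polymerase, clamp and primase genes, 3 of 4 nucleotide genes, 3 of 3 of G1 to S control, 4 of 8 of mitotic entry, 7 of 9 of spindle, checkpoint and exit, and 1 of 2 chromosome markers. After adjustment over all genes, 0 members passed, as did 0.0% of all genes, with the smallest adjusted p at 0.0557 for Rfc3 and Pold2.

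Ccne1 had the steepest slope, 0.46 (95% interval 0.28 to 0.64, adjusted p = 0.0564), or 1.37-fold per 10 mg/dl. Rfc3, a subunit of the clamp loader, had a slope of 0.42 (0.28 to 0.57), Mcm3 of 0.38 (0.21 to 0.54, adjusted p = 0.0607), Mcm6 of 0.36 (0.19 to 0.52, adjusted p = 0.0607) and Pold2, a subunit of polymerase delta, of 0.31 (0.20 to 0.41). Aurka led the mitosis members with 0.31 (0.15 to 0.46, adjusted p = 0.0710). The flattest were Gmnn (0.05), Nusap1 (0.06), Tyms (0.07) and Mki67 (0.08, interval −0.07 to 0.24), all with intervals that include 0. Whether members passed the adjusted threshold depended on the processing. With the values of the authors' series matrix 10 did, beside 290 of all genes. With a stricter background filter 8 did, with normexp background correction 6 and with quantile normalization 2. Without hypoglycaemic KO replicate 7 there were 13, beside 981 of all genes, and 3 without hypoglycaemic KO replicate 1. Calls over all genes moved as well, from 0 to at most 290 in settings with all libraries and at most 981 without single libraries. The counts of members are thus not to be read apart from that rise. The slope held its sign in all 43 members on slide 1 and in 42 on slide 2, with medians of 0.35 and 0.21 in replication and 0.19 and 0.12 in mitosis members. At an unadjusted p under 0.05, 22 replication and 3 mitosis members passed within slide 1 (beside 7.1% positive of all genes), but 1 and 0 within slide 2 (beside 2.71%). Without the 3 arrays richest in pancreas transcripts the medians were 0.28 and 0.11, and 19 and 4 members passed (beside 7.61%).

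**Figure D4:**
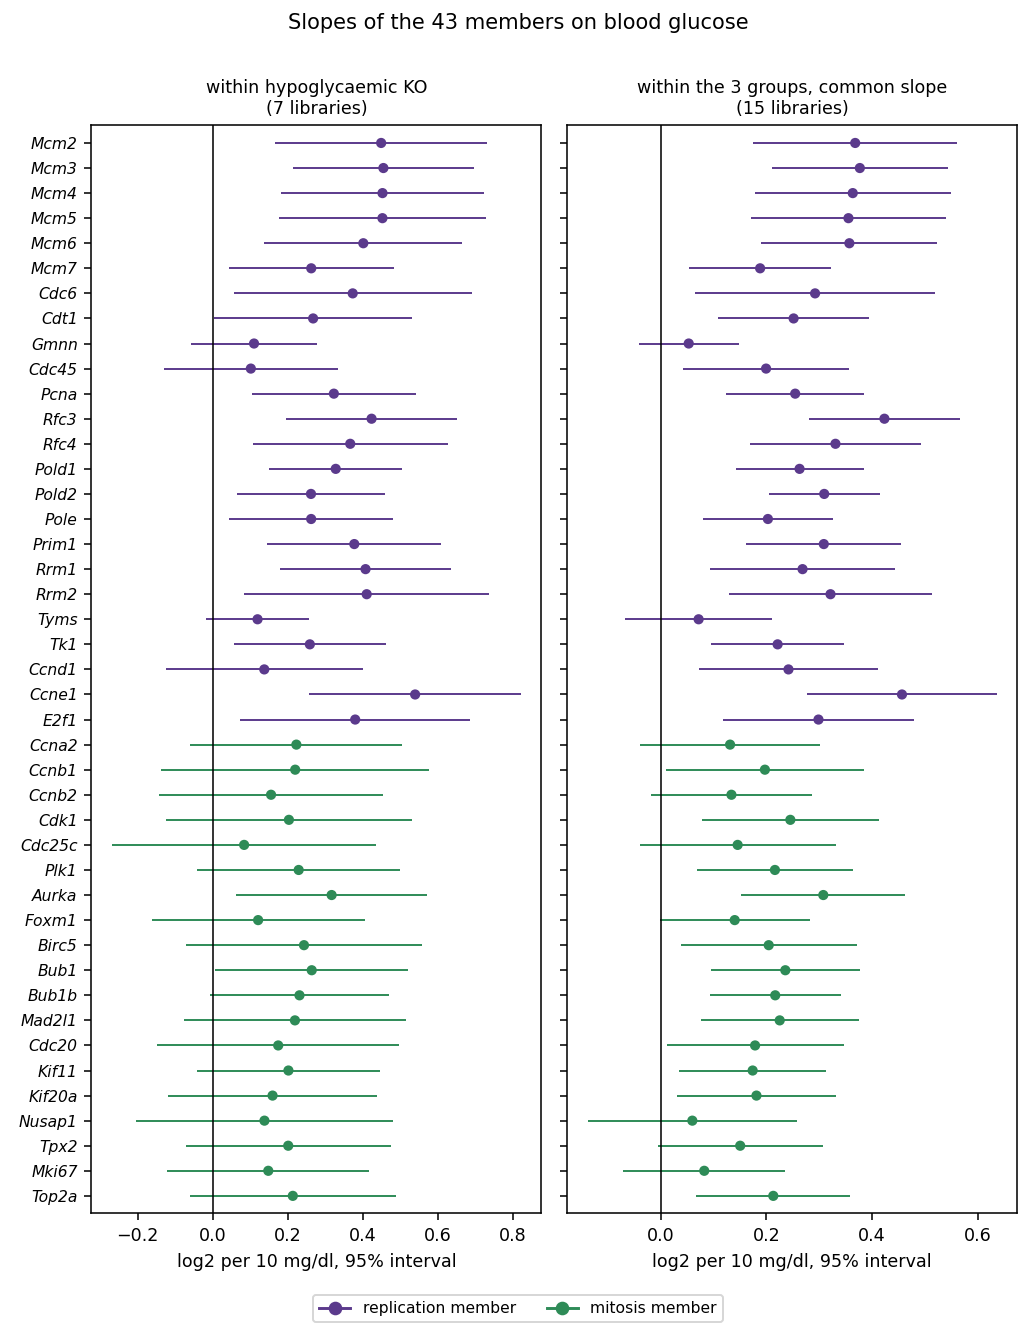
Slopes of the 43 members on blood glucose (log2 units per 10 mg/dl, points) with 95% intervals (lines), fitted within the 7 hypoglycaemic KO libraries (left) and as a common slope within the 3 groups over 15 libraries (right). Replication members (purple) have a median of 0.37 and 0.30, mitosis members (green) of 0.20 and 0.18, and within hypoglycaemic KO most mitosis intervals include 0.

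Within the 7 hypoglycaemic KO livers alone, the median slope was 0.37 in replication members and 0.20 in mitosis members, against −0.01 over all genes. Here too 0 members and 0.0% of all genes passed after adjustment, with adjusted p from 0.30 upward. At an unadjusted p under 0.05 the slope was positive in 20 of 24 replication members and in 2 of 19 mitosis members (Aurka and Bub1, a kinase of the spindle checkpoint), beside 6.23% positive and 6.93% negative of all genes. The gap between the counts of both arms moved with the setting. With the row of the array on its slide as a block, the median slopes were 0.43 in replication and 0.30 in mitosis members. Without replicate 1 they were 0.48 and 0.30, and without replicate 3 they were 0.30 and 0.11. The difference between both arms was not tested. Blood glucose in this group fell into separate stretches, 9, 12, 14 and 16 mg/dl and then 26, 29 and 33 mg/dl, so no correlation was computed and the slope is in effect a contrast of 3 pups with 4.

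The 4 pups of 9 to 16 mg/dl all lay below the 3 of 26 to 33 mg/dl in 20 of 24 replication members and in 10 of 19 mitosis members, beside 8.84% of all genes. The 4 replication members that overlapped were Cdt1, Gmnn, Cdc45 and Ccnd1. Mcm6 read 4.87, 4.43, 4.66 and 4.73 in the livers at 9, 12, 14 and 16 mg/dl and 5.57, 5.09 and 5.59 in those at 26, 29 and 33 mg/dl. In the same order Ccne1 read 2.66, 2.19, 2.24 and 2.26, then 3.24, 3.17 and 3.59. The 3 upper livers averaged 2.00-fold the signal of the 4 lower ones for Ccne1, 1.78-fold for Mcm5, 1.71-fold for Rrm2 (the small subunit of ribonucleotide reductase) and 1.52-fold for Pcna. Mki67 read 5.91, 5.33, 5.91 and 5.69 and then 6.22, 6.09 and 5.81, so its stretches overlapped, with an average ratio of 1.26. Among mitosis members the ratio was largest for Aurka, 1.52-fold.

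The replication mean less the mitosis mean followed the same split less cleanly. In hypoglycaemic KO livers it was −0.04, 0.24, −0.13 and 0.08 at 9, 12, 14 and 16 mg/dl and 0.12, 0.10 and 0.48 at 26, 29 and 33 mg/dl. It was 0.18, 0.30 and 0.25 in normoglycaemic KO livers and 0.11, 0.37, 0.33, 0.30 and 0.32 in wild-type livers. Both libraries with a negative value, hypoglycaemic KO replicates 1 and 5, had low replication means beside mitosis means of 2.14 and 2.07, near those of wild type. Replicate 3, at 12 mg/dl, was the lowest library in both arms.

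Wild-type livers alone gave slopes of the same sign, although none of these pups was hypoglycaemic. Fitted over the 5 wild-type libraries, the slope was positive in 23 of 24 replication and 19 of 19 mitosis members, with medians of 0.27 and 0.21 per 10 mg/dl. These values rest on the ends of the range: replicate 2, at 72 mg/dl, was the highest library in most members, and replicate 1, at 51 mg/dl, was the lowest. Replicate 3, at 50 mg/dl, had arm means of 2.41 and 2.08, above replicate 1 (2.00 and 1.89) and below the other wild-type livers. Normoglycaemic KO livers, with pups at 44, 44 and 56 mg/dl, had medians of 0.07 and 0.05, positive in 18 and 12 members. These per-group slopes are descriptions without a test.

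**Figure D5:**
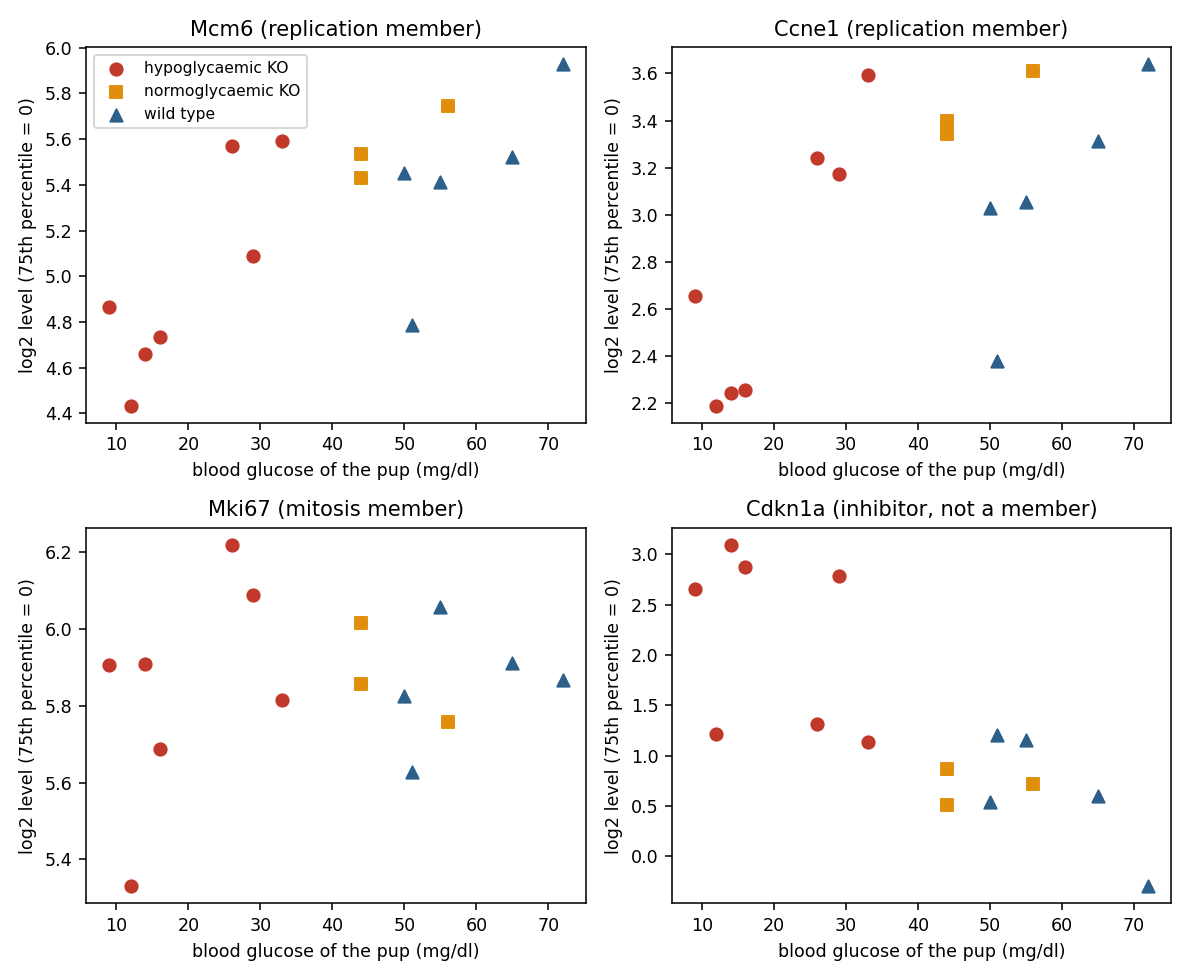
Log2 level of Mcm6, Ccne1, Mki67 and the inhibitor Cdkn1a in each library against the blood glucose of the pup. Mcm6 and Ccne1 separate the hypoglycaemic KO livers below 20 mg/dl from those above, Mki67 does not, and Cdkn1a is high in 4 of the 7 hypoglycaemic KO livers.

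Genes of the same processes outside the member set were counted from longer lists. Of 38 other replication genes tested, 0 passed the adjusted test in any comparison; the common slope within groups was positive at an unadjusted p under 0.05 in 30 and negative in 0 (median 0.22), and within hypoglycaemic KO in 25 (median 0.29). Dut, the dUTPase that keeps uracil out of DNA, had a slope of 0.34 (adjusted p = 0.0557) and read 0.71 to 1.77 (median 1.01) in hypoglycaemic KO livers, against 1.16, 2.25, 1.52, 1.50 and 1.68 in wild-type livers. Rpa3, a subunit of the single-strand DNA-binding protein RPA, differed from wild type by −0.35 in hypoglycaemic KO livers, while Orc2 (0.22), Dbf4 (0.10) and Gins3 (0.08) lay above it. Of 40 other mitosis genes, 17 had such a slope within groups (median 0.14) and 3 within hypoglycaemic KO (median 0.17), with 0 negative in either. Ncapg, a condensin subunit, had the smallest p of these for hypoglycaemic KO against wild type (−0.62, adjusted p = 0.14), followed by the kinetochore genes Spc24 (−0.30) and Spc25 (−0.41), and their partner Ndc80 lay above wild type (0.21), as did Dlgap5 (0.13) and Ckap2 (0.06). Among 9 G1 cyclins and kinases, Myc differed by 0.62 (adjusted p = 0.10) and Ccnd2, cyclin D2, by −0.37 (adjusted p = 0.17), with −0.17 for Ccnd3, −0.15 for Tfdp1 and 0.01 for Cdk4.

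Inhibitors of the cycle lay on the other side. Of 21 inhibitors and arrest genes, 7 were higher in hypoglycaemic KO than in wild-type livers at an unadjusted p under 0.05 and 0 lower (beside 9.69% and 8.97% of all genes), and 10 were higher and 1 lower than in normoglycaemic KO livers (beside 9.36% and 9.97%); 0 passed the adjusted test. Cdkn1a, the p21 inhibitor of cyclin-dependent kinases, read 1.14 to 3.09 (median 2.65) in hypoglycaemic KO livers, against 0.86, 0.72 and 0.51 in normoglycaemic KO livers and 1.20, −0.30, 0.54, 1.16 and 0.60 in wild-type livers, a difference from wild type of 1.51 ± 0.39 (SE, adjusted p = 0.099). Gadd45b, a stress-induced growth arrest gene, differed by 1.27 (adjusted p = 0.096) and Trp53inp1, a p53-inducible nuclear protein, by 1.73 (adjusted p = 0.11). Below wild type were Cdkn1c (the p57 inhibitor, −0.33), Rbl1 (the pocket protein p107, −0.29) and Ccng1 (−0.10). Trp53inp1 read 4.45, 3.96, 4.71 and 3.53 at 9, 12, 14 and 16 mg/dl and 2.06, 4.50 and 1.63 at 26, 29 and 33 mg/dl. Cdkn1a did not follow the same libraries as the replication members: hypoglycaemic KO replicate 3, the lowest in those members, had a Cdkn1a of 1.21, near wild-type replicates 1 and 4.

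Several other measures moved with these values, and their part in the results was not tested. In hypoglycaemic KO livers the summed level of 15 exocrine pancreas genes was 4.18 to 7.81 in the 4 pups of 9 to 16 mg/dl and 3.42 to 4.00 in the 3 of 26 to 33 mg/dl, with 3.75 to 10.4 in normoglycaemic KO and 3.89 to 7.51 in wild-type livers. All 18 erythroid genes had a positive slope within hypoglycaemic KO (median 0.16, 2 at an unadjusted p under 0.05, beside 6.23% of all genes). Their summed level was 10.2 to 10.6 in hypoglycaemic KO, 10.2 to 10.5 in normoglycaemic KO and 10.2 to 10.5 in wild-type livers. The hepatocyte genes, which mark the labelled tissue, summed to 12.2 to 12.4, 12.2 to 12.3 and 12.2 to 12.5 in the same groups. The 6 early haematopoietic progenitor genes ran the other way within hypoglycaemic KO (5 of 6 slopes negative, median −0.13). The slopes of 10 granulocyte genes there had a median of 0.04. All 10 lay above their normoglycaemic KO levels (4 at an unadjusted p under 0.05, beside 9.36% of all genes). The common slope within groups was negative in 8 of 8 macrophage, 6 of 6 megakaryocyte, 6 of 7 endothelial and 4 of 8 B lineage genes. Ddx3y, a Y-linked gene looked at after the slopes were known, was at 2.32 and 2.31 in hypoglycaemic KO replicates 1 and 2, both below 20 mg/dl. In the other pups of that group, at 12, 14, 26, 29 and 33 mg/dl, Ddx3y was at −5.15 or lower. It was at 1.85 and 2.01 in both normoglycaemic KO pups of 44 mg/dl and at −5.82 in the pup of 56 mg/dl, and at 2.01 in the wild-type pup of lowest glucose (50 mg/dl) and −6.01 or lower in the other four. The groups thus held it in 2 of 7, 2 of 3 and 1 of 5 pups, and within groups Ddx3y had the lowest slope on glucose of all genes (−3.13) and the female-specific XIST the highest (2.89), so glucose and the sex of the pup ran together in these libraries.

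Of the 43 members, 18 further probes were above background. Their difference between hypoglycaemic KO and wild-type livers had the sign of the chosen probe in 17, the exception being Cdk1 (0.15, against −0.19 for the chosen probe), and their slope within groups had it in 16, the exceptions being Foxm1 (−0.03, against 0.14) and a dim Tk1 probe (−0.19, against 0.22) that was well above background on 6 arrays. In mm9 coordinates of the array files, the chosen probes of the genes most relied on lay at chr1:130228178-130228237 for Mcm6, chr7:38882937-38882960 for Ccne1 and chr7:142881591-142881650 for Mki67.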

How the data were processed

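Total RNA from 15 livers was labelled with Cy3 and hybridised to Agilent single-colour arrays, and the deposited scanner tables hold one spot intensity per row, already background-corrected by Agilent Feature Extraction 10.10, per the submitters' processing notes and the file headers. The authors' deposited series matrix, used as an alternative, holds log2 values of the same arrays with the authors' normalization; its columns had medians of 7.80. From 57.9 to 76.2% of probes were well above background per array, and the number of arrays limits the precision.

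Control and outlier spots were left out, spots of a probe averaged, and log2 signals set relative to each array's 75th percentile. A probe was kept when 3 or more of the 15 arrays put it well above background (41151 of 55681), and the brightest probe stood for a gene. Gene symbols were updated through RefSeq accessions where these matched (27175 probes) and otherwise mostly kept as the files give them. Group means, and slopes on blood glucose in steps of 10 mg/dl, were fitted with limma 3.58.1 in R 4.3.3, and p-values were adjusted by Benjamini-Hochberg over all 27553 genes at 0.05. The p-values measure the spread between pups of these groups.

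The members and the lists were chosen with earlier results of these data known. All members are reported, with up to 3 genes in each direction of smallest unadjusted p per pathway list, and the 10 genes most correlated with the members; a gene of the pathway lists is not reported here. Same-numbered normoglycaemic KO and wild-type libraries deviated together (correlations 0.12 to 0.32, 3 pairs). The fit with the replicate number as a block is therefore given beside the unpaired fit for them. Hypoglycaemic KO libraries did not meet this rule. Differently numbered normoglycaemic KO and wild-type libraries reached 0.165, and the labels name no pairing, so that true pairs are not established. Array slide, read from the array identifiers, was tried as a block. Alternatives covered background correction, normalization, probe filter, probe choice, slide, replicate block, single libraries and pancreas-rich arrays. The statistics were tested on simulated data.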

Additional observations from a re-analysis of the deposited data

Results flagged for a closer look

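In 5 of the 86 member groups examined (hypoglycaemic KO and wild type, 43 members each), 1 library lay far from the others of its group; chance flags about 1 in 20 groups. Foxm1, a transcription factor of mitotic genes, was 0.13 in hypoglycaemic KO replicate 3, with the other six at 0.69 to 0.99. Mcm7 was 4.34 in wild-type replicate 1, with the other four at 4.73 to 4.86. Wild-type replicate 2 stood apart in Mad2l1, a spindle checkpoint protein, at 2.72 against 2.11 to 2.27, and in Kif20a, a kinesin of cytokinesis, at 2.03 against 1.36 to 1.52. Gmnn was 1.39 in wild-type replicate 5, with the others at 1.51 to 1.54.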

How the results depend on the processing

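The number of members passing the adjusted test was 0 in the 3 group comparisons and in the slope within hypoglycaemic KO under every alternative run. For the common slope within groups it was 6 with normexp, 2 with quantile normalization and 8 with the stricter filter. It was 10 with the authors' series matrix, where 290 of all genes passed, the most in any setting with all libraries. When single libraries were left out it was 0 to 13 (3 without hypoglycaemic KO replicate 1, 13 without replicate 7, where 981 of all genes passed). The median replication slope within groups was 0.21 within slide 2 and 0.25 to 0.34 without single libraries; within hypoglycaemic KO it was 0.30 to 0.48. Leaving out single libraries moved the difference of hypoglycaemic KO from wild type between −0.39 and −0.19 in replication and between −0.19 and −0.03 in mitosis members. The cause was not tested.

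With the replicate number as a block, the median replication and mitosis differences were −0.42 and −0.24 for hypoglycaemic KO against wild type. They were 0.23 and 0.22 for normoglycaemic KO against wild type, and −0.62 and −0.49 between the KO groups. No call of a member changed after adjustment. At an unadjusted p under 0.05 the block put 10 replication members lower for hypoglycaemic KO against wild type (beside 10.6% of all genes). Between the KO groups, 17 replication and 10 mitosis members were lower (beside 11.5%). Replicate numbers 6 and 7 occurred only in hypoglycaemic KO, in the pups at 26 and 29 mg/dl. With the block those pups add nothing to the group differences. The hypoglycaemic KO side then rested on replicates 1 to 5, at 9, 16, 12, 33 and 14 mg/dl, which also did not meet the rule for pairing. Counts over all genes moved widely: hypoglycaemic KO against wild type gave 5 calls, 0 with the block and 750 without wild-type replicate 1; the KO groups gave 15, 0 with the block and 947 without hypoglycaemic KO replicate 4; normoglycaemic KO against wild type gave 0 and up to 3; the slope within groups gave 0 and 981 without hypoglycaemic KO replicate 7. Aurkb and Ccne2 could not be assessed at this signal over background.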

Other observations

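Myc, a transcription factor that promotes cell growth, read 1.55 to 2.71 (median 1.66) in hypoglycaemic KO livers, against 1.27, 1.38 and 1.11 in normoglycaemic KO livers and 1.21, 1.14, 1.20, 1.16 and 1.34 in wild-type livers. All the hypoglycaemic KO livers thus lay above all the others. Myc was named for its small unadjusted p in these data. The share of all genes separated in this direction was not counted. Myc did not pass the test in limma (adjusted p = 0.10 against wild type). Its slope on glucose within groups was −0.03 per 10 mg/dl, unlike those of the replication members.

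Tyms-ps had a slope within groups of 0.34 (limma adjusted p = 0.0607), against 0.07 for the Tyms probe. Tyms-ps was picked for its correlation with the members over these same libraries, so its slope adds no separate support. Both are named from the array's annotation, and the copies are near-identical, so which transcript each probe reads is uncertain.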
